A study of Homo sapiens with 30 samples.

Results

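NEAT1, MALAT1 and the proteins that build paraspeckles are described here as 9 genes: the nuclear long non-coding RNAs NEAT1, MALAT1 and TUG1, and the protein genes NONO, SFPQ, PSPC1, RBM14, DAZAP1 and TARDBP. They were chosen by name, with earlier results of these data in view, and each was found by its Ensembl gene ID in the tables of all 3 lines, which list 62710 genes for IMR32 and 57905 each for NGP and SK-N-BE(2)c. All 9 passed the minimum mean value of 10 in every line, as did 13556 genes of SK-N-BE(2)c, 14440 of NGP and 17309 of IMR32.

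RNA was sequenced from IMR32, NGP and SK-N-BE(2)c, established neuroblastoma cell lines, after lipofection of antisense oligonucleotides (ASOs) at 100 nM. ASO1, ASO2 and ASO10 are directed at NESPR, a long non-coding RNA that the series calls specific to adrenergic neuroblastoma cells, and a negative control ASO is called NCA. IMR32 cells received ASO1, ASO2 or NCA (4 libraries each), and NGP and SK-N-BE(2)c cells received ASO2, ASO10 or NCA (3 libraries each), which makes 30 libraries in 9 groups. All groups, controls included, had been transfected with an oligonucleotide, and no untransfected cells were compared. The labels do not give the time to harvest or say whether replicates were separate cultures, so p-values measure the spread between these libraries, which may be technical. The level of NESPR itself was not analysed here.

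IMR32 libraries held 9393587 to 13932379 reads, NGP libraries 11591178 to 13795561 and SK-N-BE(2)c libraries 11497829 to 15060356. The columns of control replicates 2 and 3 of NGP, like those of SK-N-BE(2)c, read NCA2 where that of replicate 1 reads NCA. The titles and treatment labels call all 3 NCA, and whether NCA2 is another oligonucleotide is not given in the sources used here. Without control replicate 1, the values of the 9 genes against NCA kept direction and call in both of these lines, except that RBM14 with ASO2 in SK-N-BE(2)c was no longer called (-0.14). The adrenergic neuroblastoma markers DBH, TH, GATA3, HAND2, ISL1, MYCN and CHGA were read in the controls of every line, with the lowest mean at 26.1 normalized counts for TH in IMR32. PTPRC, which marks blood cells, was at 3.58 in IMR32 controls and at 0 in the others, and KRT5, which marks basal epithelium, was at 0 in all 3. Of the 7 adrenergic markers, 0 were called higher and 2 lower with each ASO in IMR32, 1 higher and 4 lower with ASO2 and 0 and 5 with ASO10 in NGP, and 3 higher and 4 lower with ASO2 and 0 and 6 with ASO10 in SK-N-BE(2)c. The shares of all genes called in these comparisons were 28% with ASO1 and 32.4% with ASO2 in IMR32, then 58.7% with ASO2 and 54.4% with ASO10 for NGP, and 67% and 58.9% for SK-N-BE(2)c. Of the 5 mesenchymal markers, 1 of 4 tested was called higher with each ASO in IMR32, 1 of 2 higher and 1 lower with each in NGP, and 1 of 2 lower with ASO2 and 0 with ASO10 in SK-N-BE(2)c. Of the 5 markers of other cells, the 1 tested in IMR32 was called higher with ASO2 only, 1 of 2 was higher with each ASO in NGP, and the 1 tested in SK-N-BE(2)c was higher with ASO2 only. The part of these shifts in the results below was not tested.

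Paraspeckles are small bodies in the nucleus that form around NEAT1 RNA. NEAT1 is made as a short form with a poly(A) tail and a long form that serves as the scaffold, and NONO, SFPQ and RBM14 are needed for the bodies to assemble. NONO, SFPQ and PSPC1 are related RNA-binding proteins that pair with one another. MALAT1, transcribed next to NEAT1 on chromosome 11, collects in nuclear speckles, which are stores of splicing factors. Both MALAT1 and the long form of NEAT1 get their ends by RNase P cleavage and lack an ordinary poly(A) tail. The counts are per gene, so the short and long forms of NEAT1 are read together.

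In control cells the levels are compared per kilobase of exon, since a long RNA collects more reads. In IMR32 controls MALAT1 was highest at 45724 ± 2213 normalized counts per kilobase (SD, n = 4), followed by SFPQ at 2101 ± 18 and NONO at 1444 ± 52. RBM14 followed at 380.3 ± 29.2, PSPC1 at 368.0 ± 10.4, TUG1 at 303.4 ± 9.8, NEAT1 at 284.4 ± 40.4, TARDBP at 278.5 ± 17.4 and DAZAP1 at 189.8 ± 7.3. Among neighbours in this order, RBM14 and PSPC1 overlapped between libraries, as did TUG1, NEAT1 and TARDBP.

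In NGP controls SFPQ led at 1917 ± 82 per kilobase (n = 3), then NONO at 701 ± 28, TARDBP at 651 ± 21, DAZAP1 at 551 ± 43, RBM14 at 537 ± 47, TUG1 at 396.7 ± 14.3, MALAT1 at 396.5 ± 23.0, PSPC1 at 173 ± 14 and NEAT1 at 116 ± 5. DAZAP1 overlapped RBM14, and TUG1 overlapped MALAT1. SK-N-BE(2)c controls had NONO at 1141 ± 33 and SFPQ at 1130 ± 6, which overlapped, then TARDBP at 575 ± 40, RBM14 at 533 ± 64, TUG1 at 429 ± 4, DAZAP1 at 358 ± 6, PSPC1 at 159 ± 14, MALAT1 at 150 ± 12 and NEAT1 at 93.7 ± 10.4. TARDBP overlapped RBM14, and PSPC1 overlapped MALAT1. NEAT1 was thus the lowest of the 9 per kilobase in both of these lines. This place depends on the length used, 22.8 kilobases for all annotated exons of NEAT1 together. Reads of its short form are spread over that whole length, so its values per kilobase are understated in any line where the short form prevails. The share of each form was not measured.

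MALAT1 set IMR32 apart. It took 2.53% to 3.77% of all reads of an IMR32 library, 0.0134% to 0.0305% of an NGP library and 0.00442% to 0.0112% of an SK-N-BE(2)c library. The 33 replication-dependent histone genes, whose mRNAs also lack a poly(A) tail, took 0.301% to 0.419% of IMR32 reads, 0.00906% to 0.0194% of NGP reads and 0.00495% to 0.00758% of SK-N-BE(2)c reads. The labels name a total RNA kit and an mRNA kit without saying which library had which, so library kit and cell line cannot be told apart here. For this reason, and because IMR32 was scaled on its own, IMR32 levels are not tested against those of the other lines.

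NGP and SK-N-BE(2)c were scaled together, and their controls were compared with limma (Benjamini-Hochberg adjustment over 14537 genes). Of the 9 genes, 5 were higher and 2 lower in NGP than in SK-N-BE(2)c controls, where 77% of all genes tested were called, 39.8% higher and 37.3% lower. MALAT1 was 2.65-fold higher in NGP (log2 difference 1.41 ± 0.07 SE, adjusted p = 9.14e-16). The kit is not known for these lines either. The histone genes took a mean of 0.0105% of reads in NGP controls and 0.00669% in SK-N-BE(2)c controls. Whether capture of RNAs without a poly(A) tail differed was not tested, which limits the values of MALAT1 and NEAT1 between these lines. SFPQ was 1.70-fold higher (0.76 ± 0.05, adjusted p = 1.57e-13) and NONO was at 0.614 of the SK-N-BE(2)c level (-0.70 ± 0.04, adjusted p = 2.55e-13). The RNAs of these partners thus differed in opposite directions between the lines, and their proteins were not measured. DAZAP1 (0.62 ± 0.05, adjusted p = 6.29e-11), NEAT1 (0.31 ± 0.07, adjusted p = 0.000338) and TARDBP (0.18 ± 0.05, adjusted p = 0.00197) were higher in NGP. PSPC1 (0.12 ± 0.08, adjusted p = 0.141) and RBM14 (0.01 ± 0.08, adjusted p = 0.870) did not pass, and PSPC1 passed without NGP NCA replicate 1 (adjusted p = 0.0408) or SK-N-BE(2)c NCA replicate 3 (0.0380). TUG1 passed narrowly at -0.11 ± 0.05 (adjusted p = 0.0437), and this call was lost when 1 of several libraries was left out, with the highest adjusted p of 0.160 without NGP NCA replicate 2.

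The windows around annotated starts are shown for 3 of the 9 genes: MALAT1, which was low against control with both ASOs in SK-N-BE(2)c and NGP, NONO, which was high with both, and DAZAP1, whose level depended on which ASO was used. Each window spans a RefSeq start (GRCh38.p14), with the start near its right end, 5′ to 3′ on the gene's strand. RefSeq entries were matched for 7 of the 9 genes, 8 windows in all. Both strands were searched for the TATA box as TATAAA, for the CCAAT box by that name, for the GC box as GGGCGG and for the E-box as CACGTG. Capitals mark every match, or its reverse complement, with adjoining matches run together. Of 35116 RefSeq promoter windows of this length, 11.5% hold the TATA box, 34.6% the CCAAT box, 45.0% the GC box and 7.26% the E-box. MALAT1 has a pair of annotated starts: the upstream window, at chr11:65497488-65497787 on the plus strand, holds 5 GC box matches, and the downstream one, at chr11:65498795-65499094, holds 1 TATA box match. The NONO window, at chrX:71283385-71283684 on the plus strand, holds 3 CCAAT box matches. The DAZAP1 window, at chr19:1407336-1407635 on the plus strand, holds 3 GC box matches.
MALAT1 upstream start: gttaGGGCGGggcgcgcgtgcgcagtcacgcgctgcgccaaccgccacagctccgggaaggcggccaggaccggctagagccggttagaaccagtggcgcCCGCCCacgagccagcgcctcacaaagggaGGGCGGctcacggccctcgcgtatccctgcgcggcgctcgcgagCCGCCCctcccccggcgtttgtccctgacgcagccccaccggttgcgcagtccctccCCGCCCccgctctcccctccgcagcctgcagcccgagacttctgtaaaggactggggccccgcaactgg
MALAT1 downstream start: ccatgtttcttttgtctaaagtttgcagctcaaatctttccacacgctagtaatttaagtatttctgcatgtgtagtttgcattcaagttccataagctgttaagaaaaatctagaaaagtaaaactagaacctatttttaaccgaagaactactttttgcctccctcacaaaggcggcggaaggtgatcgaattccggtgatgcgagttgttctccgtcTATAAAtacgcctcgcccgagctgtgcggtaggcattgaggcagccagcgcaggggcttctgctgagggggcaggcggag
NONO: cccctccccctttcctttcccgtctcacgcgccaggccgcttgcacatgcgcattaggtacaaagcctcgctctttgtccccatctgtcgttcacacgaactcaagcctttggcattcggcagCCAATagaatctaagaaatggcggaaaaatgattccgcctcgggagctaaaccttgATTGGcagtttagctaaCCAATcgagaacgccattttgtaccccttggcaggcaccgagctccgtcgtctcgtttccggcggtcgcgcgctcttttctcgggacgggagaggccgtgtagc
DAZAP1: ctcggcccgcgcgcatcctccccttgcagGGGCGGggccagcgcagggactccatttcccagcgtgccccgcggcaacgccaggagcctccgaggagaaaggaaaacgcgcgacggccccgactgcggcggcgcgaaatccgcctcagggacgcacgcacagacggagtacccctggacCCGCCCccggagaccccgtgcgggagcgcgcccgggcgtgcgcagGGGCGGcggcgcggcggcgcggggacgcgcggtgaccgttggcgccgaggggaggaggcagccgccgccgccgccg
These matches describe the letters only, and the RNA data do not say which start was used.

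NEAT1 (ENSG00000245532), the paraspeckle scaffold, was the most reduced of the 9 genes in SK-N-BE(2)c and stood well below control in NGP. Its normalized counts in the SK-N-BE(2)c controls were 1886, 2355 and 2158. They were 539, 562 and 525 with ASO2 and 544, 526 and 565 with ASO10. All 6 treated libraries lay far under the lowest control, and the treated groups lay on top of each other. The means were 25.4% and 25.6% of control, with log2 fold changes of -1.97 ± 0.07 (SE) and -1.96 ± 0.07. Since the genes were chosen with the comparisons against NCA in view, their values in these comparisons are given as a description, without p-values. In bulk RNA, fewer cells that express a gene and less of its RNA per cell cannot be told apart.

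In NGP the control libraries held 2730, 2675 and 2500 normalized counts of NEAT1. With ASO2 they held 1404, 1559 and 1513, and with ASO10 1301, 1501 and 1451. The treated groups overlapped each other and lay below every control, at 56.6% and 53.8% of the control mean (log2 fold changes -0.82 ± 0.06 and -0.90 ± 0.06). In IMR32 the spread was wider: 5147, 6644, 6872 and 7240 with NCA, 3474, 6182, 5413 and 5744 with ASO1, and 4515, 5383, 6893 and 6496 with ASO2. The IMR32 groups overlapped, replicate 1 was the lowest library in each of them, and the means of 80.3% and 89.9% of control (-0.34 ± 0.14 and -0.16 ± 0.14) were not called. The ASO1 difference was called without NCA replicate 1 (-0.44) or without ASO1 replicate 2 (-0.43). With a block for the replicate number in the fit, the values of both ASOs against NCA were called.

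The comparisons of ASO with ASO and of control cells between lines are other contrasts than those against NCA and carry tests. They are not independent of the comparisons in view when the genes were chosen. An ASO with ASO value shares the treated libraries and equals the difference of the values of the ASOs against NCA, in which the controls cancel. The comparison of control cells shares the NCA libraries. The p-values do not allow for this choice of genes. NEAT1 did not differ detectably between ASO2 and ASO10 in SK-N-BE(2)c (log2 difference -0.01 ± 0.07, limma adjusted p = 0.938) or in NGP (0.07 ± 0.06, adjusted p = 0.318), or between ASO1 and ASO2 in IMR32 (-0.18 ± 0.14, adjusted p = 0.427). A difference in response between lines is made from the comparisons against NCA, so for the 9 genes it is given as a description too, as the log2 fold change in SK-N-BE(2)c minus that in NGP. For NEAT1 it was -1.15 ± 0.10 with ASO2 and -1.07 ± 0.10 with ASO10. These values read each line against its own control and share the control libraries between the ASOs.

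**Figure D1:**
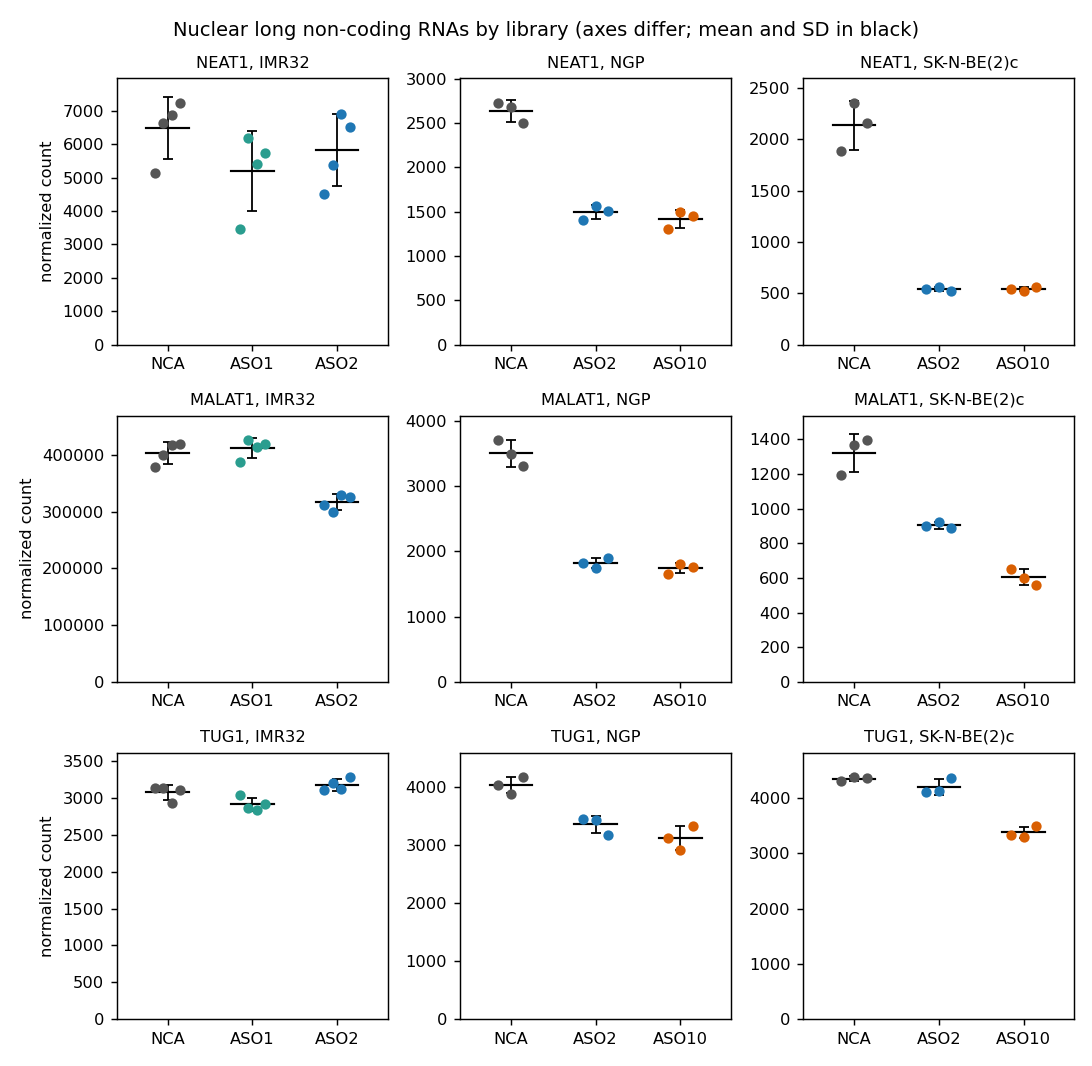
Normalized counts of NEAT1, MALAT1 and TUG1 (rows) in each library of IMR32, NGP and SK-N-BE(2)c (columns), with points for libraries, a bar for the mean and whiskers for 1 SD; each panel has its own axis from 0. NEAT1 stands at 525 to 565 in all 6 treated SK-N-BE(2)c libraries against 1886 to 2355 in the controls, while its IMR32 groups overlap.

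MALAT1 (ENSG00000251562), the speckle RNA, was at about the same share of control as NEAT1 in NGP but not in SK-N-BE(2)c. NGP controls held 3709, 3490 and 3303 normalized counts, ASO2 libraries 1821, 1747 and 1903, and ASO10 libraries 1655, 1806 and 1755. Every treated library was far below every control, at mean levels of 52.1% and 49.7% of control (log2 fold changes -0.94 ± 0.06 and -1.01 ± 0.06). The ASOs did not differ detectably (0.07 ± 0.06, limma adjusted p = 0.316).

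The SK-N-BE(2)c counts of MALAT1 were 1194, 1369 and 1397 with NCA, 901, 926 and 887 with ASO2, and 654, 600 and 561 with ASO10. These groups did not overlap and ordered as control, ASO2, ASO10, with means of 68.5% and 45.8% of control for the treated groups (-0.54 ± 0.07 and -1.12 ± 0.07). MALAT1 was 1.5-fold higher with ASO2 than with ASO10 (log2 difference 0.58 ± 0.07, limma adjusted p = 6.34e-08), while NEAT1 in the same libraries was level. The SK-N-BE(2)c response of MALAT1 minus that in NGP was 0.40 ± 0.09 with ASO2, opposite in sign to the value for NEAT1, and -0.12 ± 0.09 with ASO10.

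In IMR32, MALAT1 was at 377861, 399292, 418060 and 419576 normalized counts with NCA, at 387137, 426565, 414496 and 419469 with ASO1 and at 311028, 299555, 329527 and 326028 with ASO2. ASO1 libraries lay among the controls (102% of the mean) and all ASO2 libraries lay below them (78.4%, log2 fold change -0.35 ± 0.08). MALAT1 was 1.30-fold higher with ASO1 than with ASO2 (0.38 ± 0.08, limma adjusted p = 0.00143). MALAT1 shares 4.49% of its exonic bases with a gene on the opposite strand, AP000769.2, whose mean in the tables was 5.7 or less.

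The ratio of NEAT1 to MALAT1 reads in a library needs no scaling between libraries. It was 1.61 ± 0.09 (SD, n = 3) in SK-N-BE(2)c controls, 0.905 ± 0.091 with ASO10 and 0.600 ± 0.007 with ASO2, with no overlap between the groups. In NGP it was 0.753 ± 0.016 with NCA, 0.819 ± 0.065 with ASO2 and 0.815 ± 0.025 with ASO10. The NGP ratios spanned only 0.736 to 0.893 over all groups, with every treated library above every control. IMR32 ratios were 0.0160 ± 0.0016 with NCA, 0.0126 ± 0.0025 with ASO1 and 0.0183 ± 0.0028 with ASO2 (n = 4), and each ASO group overlapped the controls.

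**Figure D2:**
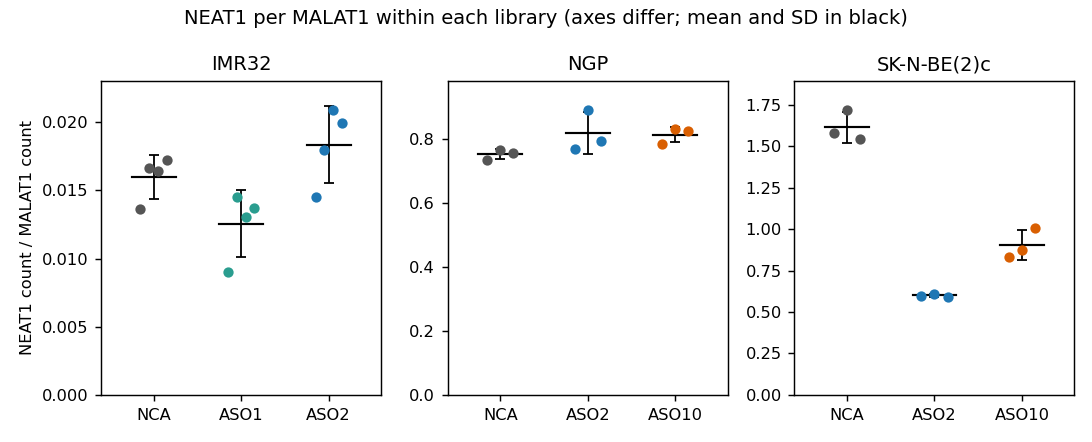
NEAT1 counts divided by MALAT1 counts in each library, with points for libraries, a bar for the mean and whiskers for 1 SD; the axes start at 0 and differ between lines. SK-N-BE(2)c goes from 1.61 in controls to 0.905 with ASO10 and 0.600 with ASO2, while NGP stays between 0.736 and 0.893.

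TUG1 (ENSG00000253352), a long non-coding RNA first found in developing retina, lay nearer to control than NEAT1 and MALAT1 did in SK-N-BE(2)c and NGP. SK-N-BE(2)c libraries held 4310, 4386 and 4373 normalized counts of it with NCA, 4112, 4129 and 4362 with ASO2, and 3337, 3303 and 3500 with ASO10. ASO10 libraries stood apart at 77.6% of the control level on the fitted scale (log2 fold change -0.37 ± 0.05), and ASO2 libraries overlapped the controls (-0.05 ± 0.05). With libraries rescaled to the same total, the ASO2 value became -0.19 and was called. TUG1 was 1.24-fold higher with ASO2 than with ASO10 (0.31 ± 0.05, limma adjusted p = 3.24e-06).

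In NGP, TUG1 was at 4035, 3879 and 4168 with NCA, 3449, 3424 and 3174 with ASO2, and 3114, 2907 and 3330 with ASO10. Both ASO groups lay below the controls (-0.27 ± 0.06 and -0.37 ± 0.06) and overlapped each other (difference 0.10 ± 0.06, limma adjusted p = 0.108, and 0.0300 without ASO10 replicate 3). In IMR32 all 12 libraries were between 2838 and 3289. The IMR32 difference of ASO1 from ASO2 (-0.13 ± 0.04, limma adjusted p = 0.0398) was lost when 1 of several libraries was left out, with an adjusted p up to 0.118 without ASO2 replicate 4, and with libraries rescaled to the same total (0.197). The response to ASO2 in SK-N-BE(2)c minus that in NGP was 0.21 ± 0.07.

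NONO (ENSG00000147140) holds the paraspeckle core together with SFPQ. Its SK-N-BE(2)c libraries held 6001, 5883 and 6230 normalized counts with NCA, 7932, 7994 and 8271 with ASO2, and 7766, 8052 and 8324 with ASO10. All treated libraries were above all controls, by log2 fold changes of 0.42 ± 0.05 and 0.41 ± 0.05, and the ASO groups overlapped (difference 0.004 ± 0.048, limma adjusted p = 0.953). With every library rescaled to the same total, NONO was lower with ASO2 than with ASO10 by -0.11 (adjusted p = 0.0433).

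NGP libraries held 3587, 3662 and 3877 normalized counts of NONO with NCA, 4625, 4726 and 4487 with ASO2, and 5423, 5182 and 5322 with ASO10. The order control, ASO2, ASO10 had no overlap (0.32 ± 0.05 and 0.52 ± 0.05 against NCA), and NONO was lower with ASO2 than with ASO10 (-0.20 ± 0.05, limma adjusted p = 0.000791). In IMR32 NONO ranged from 7393 to 8345 over all 12 libraries, and neither ASO was called against NCA (0.03 ± 0.05 and 0.08 ± 0.05). The NONO response in SK-N-BE(2)c minus that in NGP was 0.10 ± 0.06 for ASO2 and -0.10 ± 0.06 for ASO10.

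SFPQ (ENSG00000116560), the partner of NONO, stood above control with ASO2 in SK-N-BE(2)c and below it in NGP. Its SK-N-BE(2)c counts were 8351, 8378 and 8435 with NCA, 10321, 9703 and 10213 with ASO2, and 8669, 8724 and 8418 with ASO10. ASO2 libraries stood above all others, by 0.26 ± 0.05 against NCA and by 0.23 ± 0.05 against ASO10 (limma adjusted p = 9.04e-05). Its NGP counts were 13954, 14932 and 13814 with NCA, 12934, 12605 and 13718 with ASO2, and 15267, 15066 and 13955 with ASO10.

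ASO2 libraries of NGP were the lowest for SFPQ, by -0.12 ± 0.05 against NCA and -0.17 ± 0.05 against ASO10 (limma adjusted p = 0.00259, and 0.0511 with no variance trend in the fit). The call against NCA was lost without NGP ASO2 replicate 1 (-0.11), ASO2 replicate 2 (-0.09) or NCA replicate 2 (-0.09), with no filter on low values and with no variance trend. The SFPQ response in SK-N-BE(2)c minus that in NGP was 0.39 ± 0.07 for ASO2 and -0.02 ± 0.07 for ASO10. In IMR32 SFPQ was at 15501 to 15782 with NCA, 13410 to 14613 with ASO1 and 14489 to 15675 with ASO2. ASO1 libraries lay below all controls there (-0.16 ± 0.05), and ASO1 did not pass against ASO2 (-0.11 ± 0.05, limma adjusted p = 0.0988, and 0.0299 without ASO1 replicate 1).

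PSPC1 (ENSG00000121390), the third relative, had the largest rise of the 9 genes against control in NGP. Its NGP counts were 759, 850 and 893 with NCA, 1369, 1375 and 1265 with ASO2, and 1260, 1236 and 1304 with ASO10. Both ASO groups lay well above the controls (1.60-fold and 1.52-fold, log2 0.68 ± 0.07 and 0.61 ± 0.07) and close to each other (difference 0.08 ± 0.07, limma adjusted p = 0.342). The SK-N-BE(2)c counts of PSPC1 were 753, 706 and 837 with NCA, 899, 966 and 1083 with ASO2, and 849, 858 and 755 with ASO10.

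ASO2 groups did not overlap the SK-N-BE(2)c controls for PSPC1 (0.36 ± 0.08), and ASO10 groups did (0.10 ± 0.08). The difference of ASO2 from ASO10 there was 0.26 ± 0.08 (adjusted p = 0.00522), which no longer passed without ASO2 replicate 3 (adjusted p = 0.0536), without ASO10 replicate 3 (0.0540) or with libraries rescaled to the same total (0.102). The PSPC1 response in SK-N-BE(2)c minus that in NGP was -0.50 ± 0.11 for ASO10 and -0.32 ± 0.11 for ASO2. IMR32 counts of PSPC1 were 1732 to 1842 with NCA, 1916 to 1974 with ASO1 and 2004 to 2193 with ASO2, in that order with no overlap. The log2 fold changes against NCA were 0.13 ± 0.04 and 0.24 ± 0.04, the ASO1 call was lost without any 1 of ASO1 replicates 3 and 4 and NCA replicates 1, 2 and 4, with no filter on low values and with no variance trend, and ASO1 did not pass against ASO2 (-0.11 ± 0.04, adjusted p = 0.0905).

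RBM14 (ENSG00000239306), a coactivator that links paraspeckle subunits, had its lowest group mean with ASO2 in SK-N-BE(2)c and also in NGP. In NGP it was at 2211, 2229 and 1900 normalized counts with NCA, 1695, 1730 and 1721 with ASO2, and 2264, 2246 and 2075 with ASO10. ASO2 libraries lay below all others in NGP (-0.30 ± 0.06 against NCA), and ASO2 was at 0.782 of ASO10 (-0.35 ± 0.06, limma adjusted p = 2.48e-05). RBM14 in SK-N-BE(2)c was at 2233, 2253 and 1805 with NCA, 2026, 1855 and 1627 with ASO2, and 2122, 2167 and 2166 with ASO10.

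The SK-N-BE(2)c difference of RBM14 between ASO2 and ASO10 was -0.23 ± 0.07 (adjusted p = 0.00727), and it was lost without ASO2 replicate 3 (adjusted p = 0.0872) and with no variance trend in the fit (0.0915). The value of ASO2 against NCA in SK-N-BE(2)c was -0.19 ± 0.07, and its call was lost without ASO2 replicate 3 (-0.11), NCA replicate 1 (-0.14) or NCA replicate 2 (-0.13), with no filter on low values and with no variance trend. ASO10 was not called against NCA for RBM14 in either line (0.06 ± 0.06 and 0.04 ± 0.07), nor was either ASO in IMR32 (-0.04 ± 0.07 and -0.02 ± 0.07). RBM14 shares 11% of its exonic bases with the readthrough gene RBM14-RBM4, which averaged 53.8 normalized counts in IMR32 and 1.2 or less in the other lines.

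DAZAP1 (ENSG00000071626), an RNA-binding protein of splicing and translation needed for intact paraspeckles, separated the ASOs more than any of the other 8 genes did in SK-N-BE(2)c and in NGP. In NGP it was at 5064, 5463 and 4678 normalized counts with NCA, 5016, 5115 and 5216 with ASO2, and 2132, 2230 and 2175 with ASO10. In SK-N-BE(2)c it was at 3357, 3257 and 3256 with NCA, 3549, 3550 and 3485 with ASO2, and 1617, 1455 and 1487 with ASO10. In both lines the ASO10 libraries lay below all others by a wide gap, at 43.0% and 46.2% of control (-1.21 ± 0.05 and -1.12 ± 0.05).

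ASO2 was not called against NCA for DAZAP1 in either line (0.02 ± 0.05 and 0.10 ± 0.05, turning to -0.05 and -0.04 with libraries rescaled to the same total). DAZAP1 was 2.35-fold higher with ASO2 than with ASO10 in NGP (log2 difference 1.23 ± 0.05, limma adjusted p = 1.01e-15) and 2.32-fold higher in SK-N-BE(2)c (1.22 ± 0.05, adjusted p = 4.23e-17). The response of DAZAP1 to ASO10 in SK-N-BE(2)c minus that in NGP was 0.10 ± 0.07. In IMR32, where ASO10 was not used, DAZAP1 was at 1429 to 1613 with ASO1, 1736 to 1856 with ASO2 and 1659 to 1820 with NCA. ASO1 libraries lay below all controls there (-0.22 ± 0.05, called), and ASO2 was not called against NCA (0.02 ± 0.05). DAZAP1 was lower with ASO1 than with ASO2 (-0.25 ± 0.05, limma adjusted p = 0.000892).

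TARDBP (ENSG00000120948) encodes TDP-43, an RNA-binding protein that binds NEAT1 and controls its own mRNA. In SK-N-BE(2)c and NGP it stood above control with ASO2 and below it with ASO10. NGP counts were 3943, 3829 and 4086 with NCA, 4579, 4557 and 4410 with ASO2, and 3543, 3432 and 3698 with ASO10. SK-N-BE(2)c counts were 3308, 3399 and 3765 with NCA, 3856, 3927 and 4177 with ASO2, and 3070, 3073 and 3045 with ASO10. In each line the ASO2 libraries were highest and the ASO10 libraries lowest, with no overlap.

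The fold changes of TARDBP against NCA were 0.19 ± 0.05 and -0.15 ± 0.05 in NGP and 0.19 ± 0.05 and -0.19 ± 0.05 in SK-N-BE(2)c, for ASO2 and ASO10 in turn. The ASO2 value of SK-N-BE(2)c dropped to 0.06 and was not called with libraries rescaled to the same total, and the ASO10 value of NGP was not called without ASO10 replicate 2 (-0.13) or with no variance trend. ASO2 exceeded ASO10 by 0.34 ± 0.05 in NGP (limma adjusted p = 1.39e-06) and by 0.38 ± 0.05 in SK-N-BE(2)c (adjusted p = 6.90e-07). TARDBP in IMR32 ranged from 1578 to 1833 with NCA, 1585 to 2054 with ASO1 and 1840 to 2184 with ASO2. Against NCA these were 0.08 ± 0.07 and 0.20 ± 0.07 on the log2 scale. The ASO2 call there was lost without ASO2 replicate 1 (0.14) or 4 (0.21), without NCA replicate 2 (0.17), 3 (0.20) or 4 (0.19), with no filter on low values and with no variance trend. ASO1 did not pass against ASO2 (-0.12 ± 0.07, limma adjusted p = 0.249, and 0.0330 without ASO1 replicate 1).

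**Figure D3:**
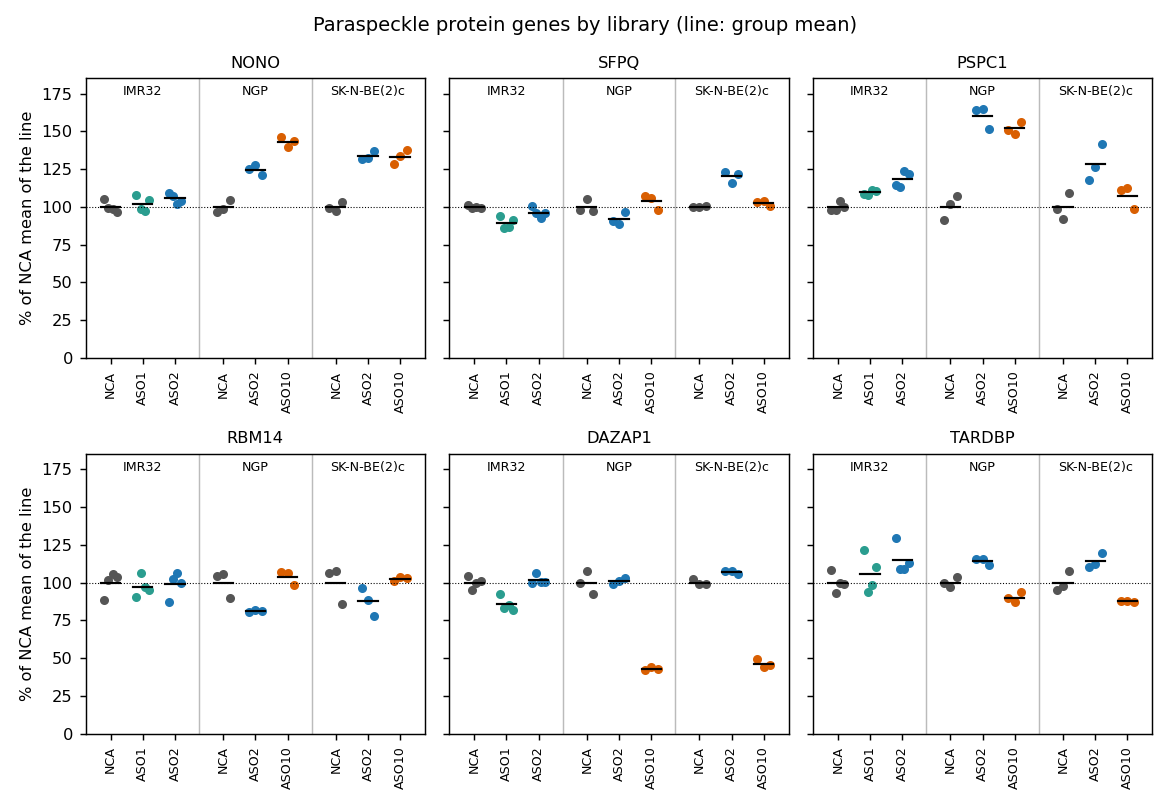
Normalized counts of the 6 protein genes in each library as a percentage of the control mean of its line, with points for libraries and a bar for the group mean; grey lines part IMR32, NGP and SK-N-BE(2)c, and the axis starts at 0. DAZAP1 with ASO10 sits at 43.0% of the NGP control and 46.2% of the SK-N-BE(2)c control, while NONO lies above control with both ASOs in these lines.

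Over the 9 genes, 1 was called higher and 2 lower with ASO1 in IMR32, where 28% of all genes were called, 13.6% higher and 14.4% lower. With ASO2 there, 2 were higher and 1 lower, against 32.4% of all genes (17.6% higher and 14.8% lower). In NGP 3 were called higher and 5 lower with ASO2, against 58.7% of all genes (30.6% and 28.1%), and 2 and 5 with ASO10, against 54.4% (26.8% and 27.6%). SK-N-BE(2)c had 4 called higher and 3 lower with ASO2, against 67% of all genes (33.6% and 33.4%), and 1 and 5 with ASO10, against 58.9% (27.8% and 31.1%). These comparisons served to choose the genes and nothing is read from the counts. Between the ASOs of IMR32, 3 of 9 were called, 1 higher and 2 lower with ASO1 than with ASO2, against 21.9% of all genes (9.17% higher and 12.8% lower). Between ASO2 and ASO10, 5 of 9 were called in NGP, 2 higher and 3 lower with ASO2, against 58.6% of all genes (30.6% and 28%). The same comparison in SK-N-BE(2)c called 7 of 9, 6 higher and 1 lower with ASO2, against 65.4% of all genes (34.6% and 30.8%). Taken over both directions, the counts between ASOs are near the background. By direction, SK-N-BE(2)c had more of the 9 called higher and fewer called lower than the shares of all genes. With 9 genes nothing is read from this split. The differences in response between SK-N-BE(2)c and NGP passed for 5 of 9 genes with ASO2, 3 higher and 2 lower in SK-N-BE(2)c, where 16.7% of all genes passed (8.79% and 7.95%). With ASO10, 0 passed as higher and 2 as lower, where 16.9% of all genes passed (8.09% and 8.78%). These differences too are built from the comparisons that served to choose the genes, and nothing is read from their counts.

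**Figure D4:**
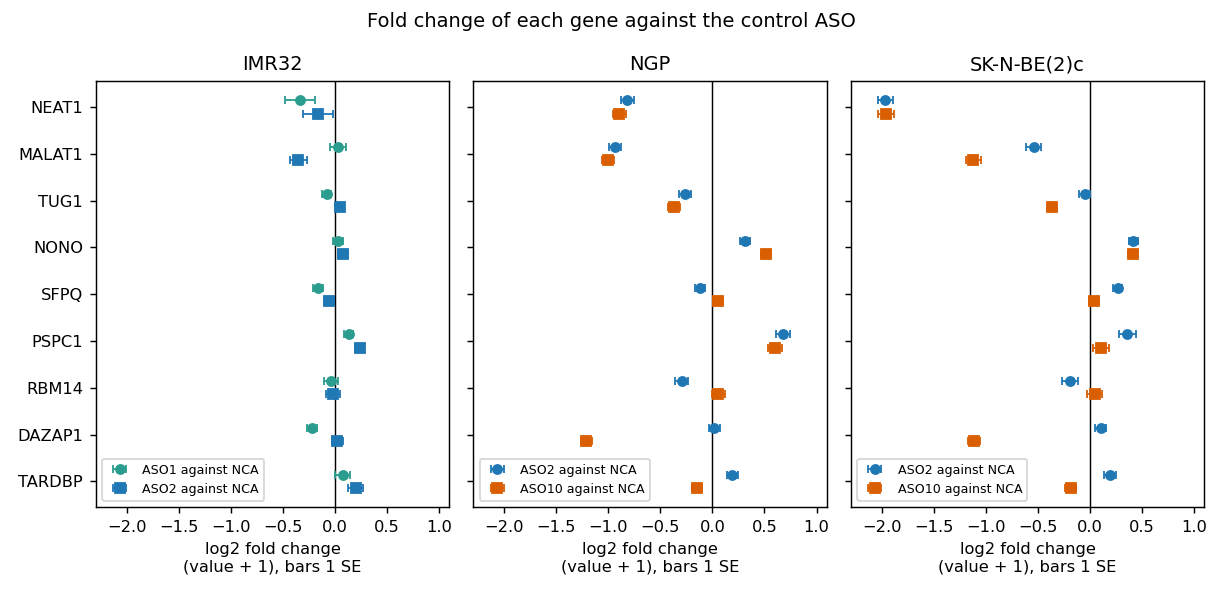
Log2 fold change on the value + 1 scale (x axis) of each of the 9 genes (y axis) against NCA in each of the 3 lines, with circles and squares for the ASOs and bars for 1 SE. NEAT1 in SK-N-BE(2)c lies near -1.97 with both ASOs, and DAZAP1 lies near 0 with ASO2 and at -1.21 and -1.12 with ASO10.

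Genes that work with the 9 were read from lists, which do not include them. The genes named from a list are those with its largest changes against NCA, so their log2 fold changes are given with SEs as a description, without p-values; all those described as rising or falling were called. The list of further paraspeckle proteins held 31 names, of which 30 were tested in IMR32 and 29 in the other lines. With ASO2, 22 rose and 4 fell in NGP (median log2 fold change 0.30, against 0.01 over all genes) and 18 rose and 4 fell in SK-N-BE(2)c (0.33 against -0.02). With ASO10, 8 rose and 7 fell in NGP and 11 rose and 11 fell in SK-N-BE(2)c. In IMR32, 7 rose and 7 fell with ASO1, and 10 rose and 1 fell with ASO2. Of all genes, 30.6% were called higher and 28.1% lower with ASO2 in NGP, 26.8% and 27.6% with ASO10, for SK-N-BE(2)c 33.6% and 33.4% with ASO2 and 27.8% and 31.1% with ASO10, 13.6% and 14.4% with ASO1 in IMR32, and 17.6% and 14.8% with ASO2. SMARCB1, a core subunit of the SWI/SNF chromatin remodeler, rose with ASO2 and ASO10 by 0.79 ± 0.05 and 0.69 ± 0.05 in NGP and by 1.09 ± 0.06 and 1.00 ± 0.06 in SK-N-BE(2)c. ZNF335, a zinc finger protein, rose by 0.51 ± 0.08 and 0.86 ± 0.08 in NGP, by 0.57 ± 0.07 and 1.15 ± 0.07 in SK-N-BE(2)c, and with ASO1 and ASO2 by 0.24 ± 0.07 and 0.32 ± 0.07 in IMR32. RBM7, of the nuclear exosome targeting complex, rose by 0.39 ± 0.14 and 0.39 ± 0.14 in IMR32. CPSF6, a cleavage factor that favours the short form of NEAT1, fell by 0.25 ± 0.06 and 0.39 ± 0.06 in SK-N-BE(2)c.

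Speckle proteins, which share their compartment with MALAT1, numbered 22, all tested. In NGP 15 rose and 3 fell with ASO2 (median 0.32) and 13 and 3 with ASO10 (0.15). In SK-N-BE(2)c 18 rose and 1 fell with ASO2 (0.39), where 33.6% of all genes rose and 33.4% fell, and 14 and 3 with ASO10 (0.24), where 27.8% and 31.1% did. In IMR32 6 rose with ASO1 (11 with libraries rescaled to the same total) and 11 with ASO2, and 0 fell. Of all genes in NGP, 30.6% rose and 28.1% fell with ASO2, and 26.8% and 27.6% with ASO10. For IMR32 the shares were 13.6% and 14.4% with ASO1, and 17.6% and 14.8% with ASO2. The medians of all genes ran from -0.03 to 0.01 in these comparisons. CLK1, a kinase that acts on SR proteins, rose with ASO2 and ASO10 by 0.59 ± 0.06 and 0.58 ± 0.06 in NGP and by 0.94 ± 0.06 and 0.53 ± 0.06 in SK-N-BE(2)c. SRSF4, an SR splicing factor, rose by 0.48 ± 0.05 and 0.44 ± 0.05 in NGP and by 0.79 ± 0.06 and 0.74 ± 0.06 in SK-N-BE(2)c. PNN, a splicing protein of the exon junction complex, fell by 0.23 ± 0.05 and 0.72 ± 0.05 in NGP and by 0.28 ± 0.06 and 0.46 ± 0.06 in SK-N-BE(2)c. In IMR32, CLK4 rose with ASO1 and ASO2 by 0.27 ± 0.07 and 0.21 ± 0.07, and U2AF2, which reads the polypyrimidine tract, by 0.14 ± 0.05 and 0.33 ± 0.05.

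Factors that make or protect the ends of NEAT1 and MALAT1 were RNase P subunits, ELAC2, METTL16 and regulators of NEAT1 polyadenylation, 15 genes in all, of which HNRNPK, CPSF6 and NUDT21 are also on the list of paraspeckle proteins. With ASO2, 8 rose and 3 fell in NGP and 9 rose and 3 fell in SK-N-BE(2)c, and with ASO10, 2 rose and 4 fell and 2 rose and 6 fell. Of all genes, 30.6% rose and 28.1% fell with ASO2 in NGP, and 33.6% and 33.4% in SK-N-BE(2)c. The shares with ASO10 were 26.8% and 27.6% in NGP, and 27.8% and 31.1% in SK-N-BE(2)c. In IMR32, 4 rose and 0 fell with ASO1, and 3 rose and 2 fell with ASO2, near the shares of all genes called there (28% and 32.4%). ELAC2, the nuclease that trims the ends of tRNAs and of the small RNAs cut from MALAT1 and NEAT1, fell with ASO2 and ASO10 by 0.58 ± 0.06 and 0.35 ± 0.06 in NGP and by 0.69 ± 0.06 and 0.24 ± 0.06 in SK-N-BE(2)c. POP5, an RNase P subunit, fell by 0.35 ± 0.11 and 0.58 ± 0.11 in NGP and by 0.65 ± 0.10 and 0.72 ± 0.10 in SK-N-BE(2)c. METTL16, which binds the triple helix at the end of MALAT1, rose by 1.07 ± 0.07 and 0.17 ± 0.07 in SK-N-BE(2)c and, with ASO1 and ASO2, by 0.34 ± 0.05 and 0.65 ± 0.05 in IMR32. HNRNPK, which favours the long form of NEAT1, rose with ASO2 and ASO10 by 0.12 ± 0.04 and 0.23 ± 0.04 in NGP and by 0.25 ± 0.05 and 0.18 ± 0.05 in SK-N-BE(2)c. The RNase P subunit RPP40 rose by 0.48 ± 0.12 and 0.29 ± 0.12 in NGP, and POP7, another, by 0.24 ± 0.08 and 0.29 ± 0.08 in IMR32.

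Other nuclear or broadly expressed long non-coding RNAs gave 12 tested genes in IMR32 and SK-N-BE(2)c and 13 in NGP. In SK-N-BE(2)c 3 rose and 6 fell with ASO2 (median -0.29) and 1 rose and 9 fell with ASO10 (median -0.62), where 67% and 58.9% of all genes were called. In NGP 4 rose and 2 fell with ASO2 (0.11) and 2 rose and 4 fell with ASO10 (-0.20). In IMR32 1 rose and 5 fell with ASO1, and 0 rose and 6 fell with ASO2. Of all genes in NGP, 30.6% rose and 28.1% fell with ASO2, and 26.8% and 27.6% with ASO10. For IMR32 the shares were 13.6% and 14.4% with ASO1, and 17.6% and 14.8% with ASO2. TTN-AS1, antisense to titin, fell with ASO2 and ASO10 by 0.32 ± 0.12 and 0.72 ± 0.12 in NGP and by 0.46 ± 0.19 and 1.35 ± 0.19 in SK-N-BE(2)c. MIR17HG, the host of a microRNA cluster, fell by 0.64 ± 0.16 and 0.96 ± 0.16 in SK-N-BE(2)c. CHASERR, which lies next to and restrains CHD2, went the other way and rose by 1.04 ± 0.07 and 0.59 ± 0.07 in SK-N-BE(2)c and by 0.49 ± 0.06 and 0.58 ± 0.06 in NGP. NORAD, which binds Pumilio proteins, rose by 0.34 ± 0.06 and 0.15 ± 0.06 in NGP. CRNDE fell with ASO1 and ASO2 by 0.29 ± 0.06 and 0.24 ± 0.06 in IMR32, and OIP5-AS1 by 0.17 ± 0.05 and 0.34 ± 0.05.

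Genes that lie beside NEAT1 and MALAT1 on chromosome 11 made the last list. Of 13 tested in SK-N-BE(2)c, 8 rose and 0 fell with ASO2 (median 0.34) and 10 rose and 0 fell with ASO10 (0.47). In NGP 8 rose and 2 fell with ASO2 (0.26, and 4 rose with libraries rescaled to the same total) and 5 rose and 1 fell with ASO10 (0.15). Of 14 in IMR32, 5 rose and 0 fell with each ASO. Of all genes in SK-N-BE(2)c, 33.6% rose and 33.4% fell with ASO2, and 27.8% and 31.1% with ASO10. The shares in NGP were 30.6% and 28.1% with ASO2, and 26.8% and 27.6% with ASO10. For IMR32 they were 13.6% and 14.4% with ASO1, and 17.6% and 14.8% with ASO2. EHBP1L1, a membrane traffic adaptor, rose with ASO2 and ASO10 by 1.66 ± 0.18 and 2.14 ± 0.18 in NGP and by 0.83 ± 0.21 and 1.33 ± 0.21 in SK-N-BE(2)c. TIGD3 rose by 0.79 ± 0.26 and 1.99 ± 0.26 in NGP, and MAP3K11, a kinase of the JNK pathway, fell by 0.37 ± 0.10 and 0.40 ± 0.10 there. DPF2, a chromatin factor, rose by 0.74 ± 0.06 and 0.68 ± 0.06 in SK-N-BE(2)c and, with ASO1 and ASO2, by 0.26 ± 0.06 and 0.25 ± 0.06 in IMR32.

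**Figure D5:**
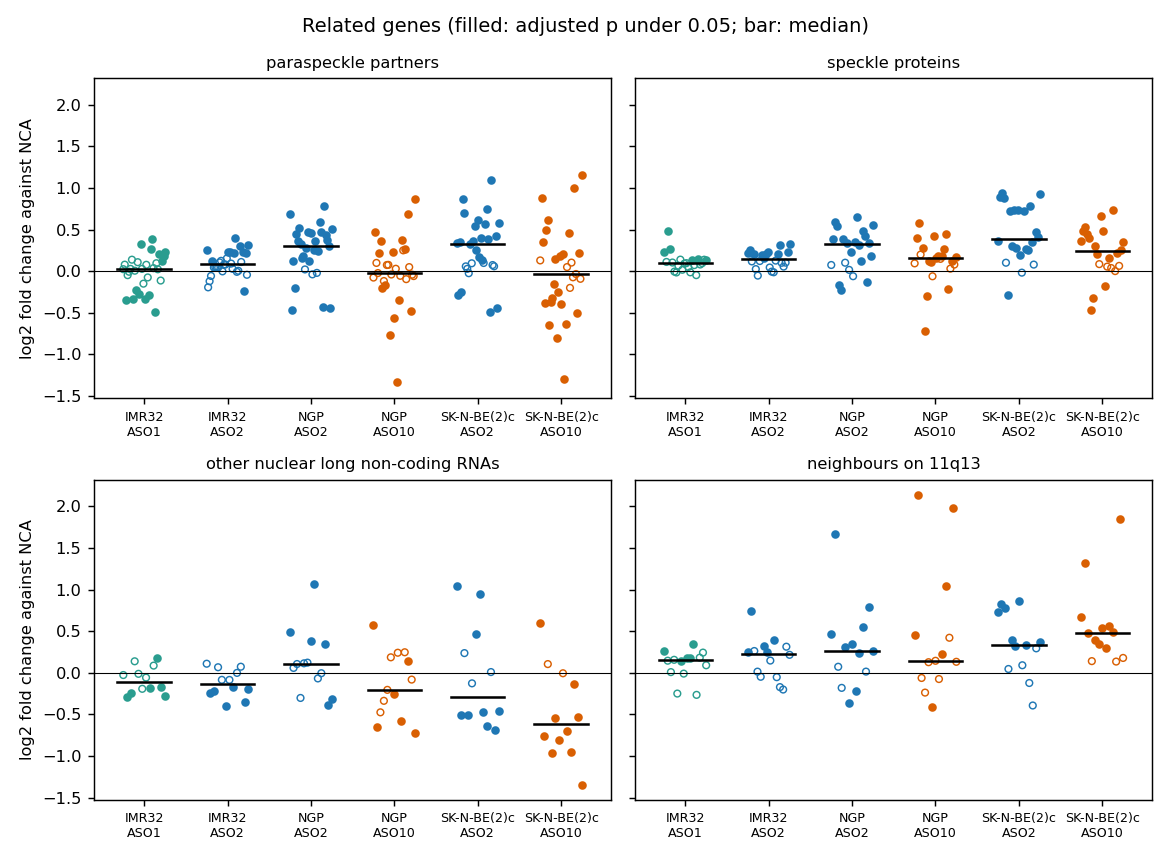
Log2 fold change against NCA (y axis) of every tested gene on 4 lists in the 6 comparisons (x axis), with filled points for adjusted p under 0.05, open points for the rest and a bar for the median. Speckle proteins lie mostly above 0 in every comparison. The list of other nuclear or broadly expressed long non-coding RNAs is lowest with ASO10 in SK-N-BE(2)c, with a median of -0.62.

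The genes whose 6 log2 fold changes against NCA lay nearest to those of NEAT1 were sought among 11594 genes tested in all 3 lines, by the root mean square difference. They were ST6GALNAC3 (0.265), a gene listed only as ENSG00000271533 (0.269), FGF14 (0.329), NHS (0.349) and FHOD3 (0.351). MALAT1 was 498th in nearness to NEAT1 (0.699). Nearest to MALAT1 were TRAPPC12 (0.128), PMFBP1 (0.153), PRR16 (0.161), LRRC20 (0.165) and PROS1 (0.168), and NEAT1 was 3965th. Nearest to TUG1 were ACOT7 (0.0514), PDF (0.0599), DIXDC1 (0.0676), ERP44 (0.0678) and DBNDD1 (0.0727). For ST6GALNAC3, a sialyltransferase, the log2 fold changes were -0.40 and -0.28 with ASO1 and ASO2 in IMR32, -0.94 and -1.21 with ASO2 and ASO10 in NGP, and -1.79 and -1.45 in SK-N-BE(2)c. The 6 comparisons share control libraries within a line, so nearness describes these values alone.

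With libraries rescaled to the same total, the median of all genes with ASO2 in SK-N-BE(2)c moved from -0.02 to -0.15, and the share of called genes that were higher from 50.2% to 38.4%. Relative to that median, NEAT1 and MALAT1 stayed below and NONO, SFPQ and PSPC1 above.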

How the data were processed

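RNA-seq values came as 1 table per cell line of gene counts that the authors had normalized, per the labels, and are treated as a normalized signal: reads divided by 1 size factor per library. Steps between low deposited values gave each factor back, which turned 100% of the values into whole reads (tolerance 0.1 reads). NGP and SK-N-BE(2)c carried joint scaling and IMR32 its own. Per the submitters' processing notes, FastQC 0.11.8, cutadapt 1.18, STAR 2.6.0, HTSeq 0.6.1, DESeq2 1.42.0 and hg19/GRCh37 were used. Which kit a library had and whether counting used strand are not given in the sources used here. Of 62884 IMR32 entries, 174, with 0.172% of values, had no gene ID and were left out. The number of per-sample columns not used was 0.

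Log2(value + 1) was fitted with limma 3.58.1 in R 4.3.3, with a mean-variance trend and a mean per group, for genes with a mean of at least 10. One fit per line gave the comparisons within it, and 1 fit of 18 NGP and SK-N-BE(2)c libraries those between lines. Calls are genes with an adjusted p (Benjamini-Hochberg, over all genes tested) under 0.05. Fold changes on this scale understate low genes. The planned count test was for raw counts, so edgeR 4.0.16 on the recovered reads served as an alternative added after the files were seen. The tests were checked on simulated data. Exon lengths come from GENCODE 29, promoters from RefSeq, and symbols matched 99.9% of gene IDs in IMR32 and 89.8% in the other tables. The IMR32 table also lists gene IDs that the NGP and SK-N-BE(2)c tables lack. The gene models counted may thus differ between IMR32 and the other lines, and from GENCODE 29. Values per kilobase rest on the GENCODE 29 lengths in every line. MATR3 matched more than 1 ID and was not used.

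The 9 genes and the gene lists were chosen with earlier results of these data known. From each list, the 2 genes with the largest mean rise and the 2 with the largest mean fall among those called with 1 sign with both ASOs of a line are named; for NEAT1, MALAT1 and TUG1, also the 5 genes with the nearest fold changes. One gene that the rule picks is not reported here. The other settings tried were other pseudocounts, filters, scalings, variance models, samples in the fit, a replicate block and leaving out each library.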

Additional observations from a re-analysis of the deposited data

Results flagged for a closer look

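Some values of the response in SK-N-BE(2)c minus that in NGP (log2, limma, adjusted over 14537 genes) were flagged by the call threshold. They are built from the comparisons in view when the genes were chosen, so the threshold serves as a flag and not as a test. No p-values are given. For NEAT1 the values were -1.15 with ASO2 and -1.07 with ASO10, with all 3 libraries of each ASO group below all 3 controls in both lines. With ASO2 the value was 0.40 for MALAT1 and 0.39 for SFPQ. It was 0.21 for TUG1 and -0.32 for PSPC1 with ASO2, and both flags were lost when 1 of several libraries was left out. With ASO10 the value for PSPC1 was -0.50.

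One library stood apart in its group: TUG1 in IMR32 NCA replicate 3 was at 2932 normalized counts, and the other control libraries were between 3109 and 3141. Of 27 groups of 4 libraries looked at in this way, about 1 in 20 would be picked out by chance.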

How the results depend on the processing

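Counts of genes called over all genes stayed within 1.5 times of the reported counts under every setting run except the rule that also asks for a log2 fold change of at least 1. That rule left 222 genes with ASO1 and 197 with ASO2 against NCA and 120 between the ASOs in IMR32, 1410 with ASO2, 1686 with ASO10 and 1858 between them in NGP, likewise 1776, 1466 and 1883 in SK-N-BE(2)c, 4788 between the NGP and SK-N-BE(2)c controls, and 311 and 454 for the differences of the ASO2 and ASO10 responses. Of 1053 values of single genes under other settings, 1002 kept direction and call, 28 lost and 8 gained a call, and 15 changed sign, of which only NONO in SK-N-BE(2)c, ASO2 against ASO10, passed the threshold after the change. Of 1296 values with 1 library left out, 1201 kept both, 53 lost and 7 gained a call, and 35 changed sign; the values with a changed sign lay near 0.

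With libraries rescaled to the same total, DAZAP1 with ASO2 against NCA became -0.0364 in SK-N-BE(2)c, -0.0539 for NGP and -0.00916 for IMR32, ASO1 against ASO2 in IMR32 became 0.00386 for NONO and 0.0304 for RBM14, NONO in SK-N-BE(2)c ASO2 against ASO10 became -0.108, and the difference in response became -0.0664 for TARDBP with ASO2 and -0.0105 for TUG1 with ASO10. TMM scaling gave 0.0765 for SFPQ, 0.0794 for RBM14 and 0.0581 for TARDBP in the ASO10 response difference, where it called 2131 genes higher and 812 lower against 1176 and 1277 as reported. The same total moved the share of called genes that were higher from 41.8% to 59.8% for ASO1 against ASO2 in IMR32, from 52.9% to 42.2% for ASO2 against ASO10 in SK-N-BE(2)c and from 52.5% to 32.9% for the ASO2 response difference. edgeR on recovered reads, added after the data were seen, gave -0.0292 for NONO in SK-N-BE(2)c ASO2 against ASO10, -0.0240 for RBM14 between the controls, and response differences of -0.00640 for TARDBP with ASO2 and -0.0127 for TUG1 with ASO10. The causes were not tested.

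Libraries of 1 replicate number did not deviate together for every number in any pair of groups. In IMR32 the correlations between groups were 0.332, 0.318 and 0.261 for number 1 and 0.112 to 0.163 for number 3. For numbers 2 and 4 they were -0.006 to 0.055. The numbers were not used as pairs in the reported fits. What libraries of number 1 share in IMR32 thus stays in the spread there. With the replicate block, counts in IMR32 were 6609, 7419 and 5677 in place of 4850, 5607 and 3795, and NEAT1 in IMR32 was called with ASO1 and with ASO2 against NCA, and for ASO1 against ASO2 (limma adjusted p = 0.00446). The block also called NONO with ASO2 against NCA, and SFPQ (adjusted p = 0.00329), PSPC1 (0.0135) and TARDBP (0.00945) for ASO1 against ASO2 in IMR32.

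Leaving out 1 library gave these ranges for values that changed sign. In IMR32, ASO1 against ASO2 ran from -0.292 to 0.00683 for NEAT1 and from -0.0848 to 0.0124 for RBM14, ASO2 against NCA from -0.0720 to 0.0453 for RBM14 and from -1.84e-05 to 0.0446 for DAZAP1, and ASO1 against NCA from -0.00198 to 0.0589 for MALAT1. In NGP, DAZAP1 with ASO2 ran from -0.0403 to 0.0716 and RBM14 with ASO10 from -0.0172 to 0.0977. In SK-N-BE(2)c, ASO2 against ASO10 ran from -0.0333 to 0.0193 for NEAT1 and from -0.0218 to 0.0283 for NONO, and RBM14 with ASO10 from -0.0599 to 0.09997. Between the controls RBM14 ran from -0.0899 to 0.0892. The ASO2 response difference of TARDBP ran from -0.0367 to 0.0568, and those of ASO10 from -0.0560 to 0.00883 for SFPQ, -0.117 to 0.0617 for RBM14, -0.0446 to 0.0534 for TUG1 and -0.0720 to 0.0214 for TARDBP. With 3 or 4 libraries a group, the standard errors of the 9 genes within a line ran from 0.0427 to 0.145 on the log2 scale.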
